A study of Mus musculus with 10 samples.

Results

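p53 is a transcription factor that DNA damage stabilises. It binds DNA as a tetramer at paired copies of a 10-base sequence, and among its best known direct targets are genes that hold the cell cycle, genes that restrain growth signalling and genes that switch p53 itself off again. Open chromatin at the start sites of such genes is common before any damage, and p53 can also occupy sites upstream or inside the genes. The 10 targets of arrest and feedback described here were Cdkn1a, Mdm2, Ccng1, Sesn1, Sesn2, Btg2, Plk2, Zmat3, Phlda3 and Gdf15, out of 21951 protein-coding genes of the annotation. They are known p53 targets, and the rule uses no measured value. Each called region that overlapped a member gene or 10 kb on either side of it was taken, which gave 82 of the 211107 regions obtained by merging the overlapping regions of all 5 peak lists.

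The regions were called by ATAC-seq, in which a transposase cuts accessible DNA, in Myc-CaP cells, a male prostate cancer line of the FVB mouse from a tumour driven by a Myc transgene. All groups were therefore the same Myc-driven line at 48 h, either untreated (Ctrl) or treated. The treatments were oxaliplatin at 2 µM (Oxali), cisplatin at the same dose (Cispl), interferon-γ (IFNγ), which the labels give as 1000 pg with no volume, and 2 µM oxaliplatin together with that IFNγ (Oxali + IFNγ, called the combination below). The Oxali, Cispl and combination lists are together called the platinum lists. Each group had 2 libraries, which the authors pooled before calling peaks, so each group is 1 list of 1 cell line. Libraries were not analysed one by one here, so the comparisons below have no spread between replicates, no test and no p-value. The peak lists hold accessibility, and p53 protein and mRNA levels were not analysed here.

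A level is given here as the pileup at the highest summit of a region, divided by the genome background of its list. The pileup counts read ends extended around the transposase cut, not whole fragments. On this scale 1 is the background, and lists of different depth can be set side by side. Relative to Ctrl, sequencing depth measured by the genome background was 92.9% in the Oxali list, 113% in that of Cispl, 79.3% in that of IFNγ and 106% in that of the combination. The lowest levels that any list called lay between 1.70 and 1.89, so a region not called was not detectable at that depth above its local background and was not shown to be closed. In bulk libraries, fewer cells with an open region and a less open region in every cell cannot be told apart. Among markers of prostate and luminal epithelium, Hoxb13, Foxa1 and Krt8 had a called region within 1 kb of a start in all 5 lists, whereas Cdh1 had none and Krt18 and Epcam had weak calls in 2 lists and 1 list. Among leukocyte markers Cd3e and Itgam were called in none, and Ptprc weakly in 3 lists, at 2.47 to 2.93. Of 4 endothelial and fibroblast markers Pdgfra and Col1a1 were called in all lists, at 112 and 49.9 in Ctrl, and Cdh5 in none. The part of other cells in the results was not tested.

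The sequences below are shown because they lie under the regions that the results turn on. They were read from the GRCm38 reference (mm10), which is of another strain than the cells, on the + strand, and each runs over 151 bases. Capitals mark every match of the patterns below that lies wholly within the window. The p53 pattern was a pair of the decamer of the p53 consensus, 0 or 1 base apart, with at most 2 mismatches and the C and G of each core kept, or a single exact decamer. The AP-1 pattern, bound by Fos and Jun proteins, was TGANTCA. Both patterns read the same on either strand, and they do not overlap in the sequences shown. The first 5 hold paired p53 decamers at Mdm2 (chr10:117717735-117717885, 7052 bp upstream of the gene, with an AP-1 match after it), Ccng1 (chr11:40755396-40755546, just upstream of the start), Plk2 (chr13:110394310-110394460, upstream), Sesn1 (chr10:41893425-41893575, intron, with a single decamer after it) and Btg2 (chr1:134065745-134065895, downstream, with an AP-1 match after it).
Mdm2 upstream: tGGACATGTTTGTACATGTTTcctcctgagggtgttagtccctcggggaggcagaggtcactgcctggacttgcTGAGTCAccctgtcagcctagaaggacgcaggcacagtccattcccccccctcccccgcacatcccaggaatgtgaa
Ccng1 start site: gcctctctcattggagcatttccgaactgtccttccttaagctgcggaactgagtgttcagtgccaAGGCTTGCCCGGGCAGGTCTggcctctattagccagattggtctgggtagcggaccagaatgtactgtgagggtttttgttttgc
Plk2 upstream: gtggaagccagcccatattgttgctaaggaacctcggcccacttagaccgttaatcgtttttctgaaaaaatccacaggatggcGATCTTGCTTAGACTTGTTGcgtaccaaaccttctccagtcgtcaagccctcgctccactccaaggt
Sesn1 intron: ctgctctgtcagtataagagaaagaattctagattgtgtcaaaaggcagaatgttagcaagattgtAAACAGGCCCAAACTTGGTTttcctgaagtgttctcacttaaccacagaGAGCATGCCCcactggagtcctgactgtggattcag
Btg2 downstream: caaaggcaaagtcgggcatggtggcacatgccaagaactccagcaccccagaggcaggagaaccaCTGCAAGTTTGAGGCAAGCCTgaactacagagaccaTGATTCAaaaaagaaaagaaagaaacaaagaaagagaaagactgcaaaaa

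The other 6 are centred on summits of regions with more signal, or called at all, in the platinum lists, and the last 2 hold no match. They are Cdkn1a (chr17:29088668-29088818, upstream, 2 single p53 decamers in capitals), Phlda3 (chr1:135771037-135771187, downstream, an AP-1 match followed by a single p53 decamer), Mdm2 (chr10:117696782-117696932, intron, an AP-1 match), Zmat3 (chr3:32333079-32333229, downstream, an AP-1 match), the Mdm2 region with the largest ratio (chr10:117696077-117696227, exon) and a Sesn1 region gained in all 3 platinum lists (chr10:41802184-41802334, upstream). The exon at that Mdm2 summit was annotated as neither coding sequence nor untranslated region.
Cdkn1a upstream: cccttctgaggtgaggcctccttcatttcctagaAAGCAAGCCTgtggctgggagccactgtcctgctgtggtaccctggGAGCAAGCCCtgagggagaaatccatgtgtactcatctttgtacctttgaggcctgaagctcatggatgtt
Phlda3 downstream: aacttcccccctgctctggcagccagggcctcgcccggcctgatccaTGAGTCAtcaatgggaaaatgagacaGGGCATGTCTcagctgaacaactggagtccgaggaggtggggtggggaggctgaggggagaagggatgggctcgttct
Mdm2 intron: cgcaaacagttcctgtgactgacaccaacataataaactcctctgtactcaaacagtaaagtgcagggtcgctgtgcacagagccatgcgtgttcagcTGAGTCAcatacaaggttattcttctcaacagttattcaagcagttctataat
Zmat3 downstream: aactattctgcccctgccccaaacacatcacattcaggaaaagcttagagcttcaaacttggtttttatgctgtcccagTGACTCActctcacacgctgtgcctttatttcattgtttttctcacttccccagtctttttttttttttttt
Mdm2 exon: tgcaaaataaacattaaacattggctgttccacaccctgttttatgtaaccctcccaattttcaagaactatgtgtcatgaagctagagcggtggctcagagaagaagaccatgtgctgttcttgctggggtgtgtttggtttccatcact
Sesn1 upstream: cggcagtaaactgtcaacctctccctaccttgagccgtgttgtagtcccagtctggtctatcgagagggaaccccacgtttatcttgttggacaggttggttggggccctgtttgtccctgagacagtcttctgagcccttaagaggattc

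Of the 82 regions, 2 had a paired p53 match within 100 bp of the summit (2.44%), against 0.548% of all merged regions, and the reversed pattern was found in none of the 82 and in 0.0891% of all. Over the whole region, 5 of the 82 held a paired match (6.10%, against 1.51% of all). A single decamer lay within 100 bp of the summit in 7 regions (8.54%, against 6.77%), and an AP-1 match in 14 (17.1%, against 21.0%). A match describes the reference sequence and is not a site shown to be bound. The regions near the 23 other p53 pathway genes that were examined (among them Trp53, Mdm4, Bax, Bbc3, Fas and Gadd45a) held a paired match at the summit in 1 of 203.

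The start sites of the arrest and feedback genes were already open in untreated cells, and the main start-site region of each gene with a Ctrl call had a lower level in all 4 treated lists, under either scaling described below. A called region within 1 kb of an annotated start was found in Ctrl for 8 of the 10 members, 10 regions in all, and the main one of each gene is the one of highest Ctrl level. The plot of start-site levels shows these 8. The main region of Cdkn1a lay inside its gene, and the regions that were not the main one lay at internal starts of Sesn1 and Mdm2. That of Sesn1 (chr10:41886900-41888073) was also lower in each treated list, with 131 in Ctrl, 91.6 with Oxali, 74.0 with Cispl, 71.9 with IFNγ alone and 57.7 with the combination, whereas that of Mdm2, described further below, was higher with Oxali and with Cispl.

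**Figure D1:**
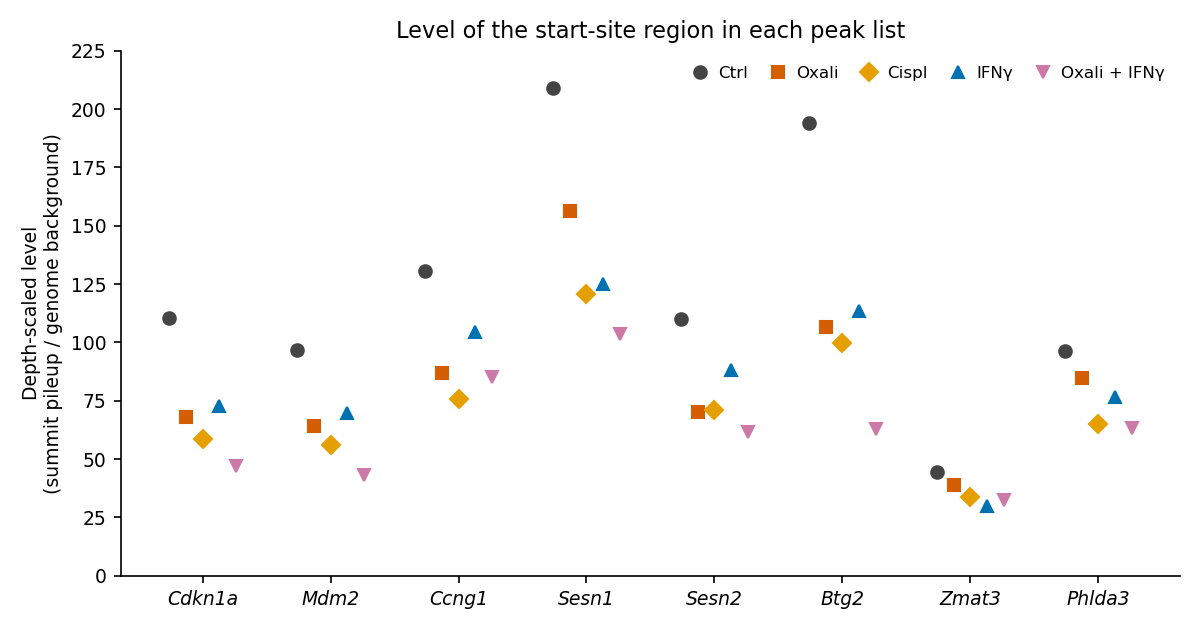
Depth-scaled level (summit pileup divided by the list's genome background, linear axis from 0) of the main start-site region (highest Ctrl level) of 8 genes, 1 point per pooled peak list and no error bars because there were no replicates. The Ctrl point is the highest for each of the 8 genes, and the Oxali + IFNγ point is the lowest for 6 of them, the exceptions being Ccng1 and Zmat3.

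Cdkn1a encodes p21, the cyclin-dependent kinase inhibitor through which p53 arrests cells. Its start-site region (chr17:29093412-29095771) lay at an annotated start inside the gene, with its summit in an intron, 4545 bp from the gene start. No list had a called region within 1 kb of the gene start itself. The region stood at 111 in Ctrl, 68.2 with Oxali, 58.6 with Cispl, 72.9 with IFNγ alone and 47.1 with the combination. The Oxali level was 0.617 times that of Ctrl, with a 95% interval of 0.564 to 0.675, and the Cispl level 0.530 times (0.485 to 0.579). All such intervals are exact Clopper-Pearson intervals of the 2 pileups and cover counting error only, not differences between libraries.

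Mdm2 encodes the ubiquitin ligase that marks p53 for degradation and closes the feedback loop. At its start (chr10:117709912-117711784) the levels were 96.9 in Ctrl, 64.0 with Oxali, 56.2 with Cispl, 69.7 with IFNγ alone and 43.1 with the combination, the same order as at Cdkn1a. A single p53 decamer lay 96 bp from this summit.

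Ccng1 encodes cyclin G1, which acts in the same feedback on Mdm2. Its start-site region (chr11:40754559-40755781) held 2 paired p53 matches of 1 mismatch each, the second of which is printed above. Its levels were 131 in Ctrl, 86.7 with Oxali, 75.6 with Cispl, 104 with IFNγ alone and 85.0 with the combination. The level with Oxali was 0.664 times that of Ctrl (0.612 to 0.719), close to the ratios at Cdkn1a and Mdm2.

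Btg2, an antiproliferative cofactor of the mRNA deadenylation machinery, had the lowest ratios among these 8 main start-site regions. Its region (chr1:134078481-134080139) stood at 194 in Ctrl, 107 with Oxali, 99.8 with Cispl, 113 with IFNγ alone and 63.1 with the combination. The combination level was 0.325 times that of Ctrl (0.300 to 0.352), and 0.440% of all regions called in both lists had a ratio at or below that.

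The sestrins, stress proteins that restrain the growth kinase mTORC1, were open as well. Sesn1 had the highest start-site level of the members (chr10:41809512-41810904), with 209 in Ctrl, 156 with Oxali, 121 with Cispl, 125 with IFNγ alone and 104 with the combination. A region in its intron with a paired p53 match away from the summit (chr10:41893361-41894448) had 44.0, 41.9, 33.7, 36.8 and 42.1 in the same order. For Sesn2 (chr4:132509466-132510851) the same values were 110, 70.3, 71.0, 88.3 and 61.6. Phlda3, which competes with the kinase Akt for membrane lipids, had 96.4, 84.8, 65.0, 76.5 and 63.4 (chr1:135765564-135766860). Zmat3, an RNA-binding zinc-finger protein, was the least open of the 8, with 44.2, 38.7, 33.9, 29.7 and 32.3 (chr3:32364810-32366509). These 2 genes had the Oxali ratios nearest to 1, 0.880 (0.807 to 0.959) for Phlda3 and 0.874 (0.769 to 0.994) for Zmat3.

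Plk2, a kinase of centriole duplication, and Gdf15, a secreted stress cytokine, stood apart. For Plk2 no list but Cispl and Oxali + IFNγ had a call within 1 kb of a start, a weak region at chr13:110394279-110394519 with levels of 2.76 and 2.94. Its summit lay 19 bp from the paired p53 match of 2 mismatches printed above, and 661 bp upstream of the gene. For Gdf15 no list used here had a called region within 1 kb of a start. The most open region of its window lay inside the gene (chr8:70629481-70630577), with 76.2 in Ctrl, 64.6 with Oxali, 61.8 with Cispl, 61.3 with IFNγ alone and 61.8 with the combination.

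The median start-site ratios of the members were near those of open start sites over the genome. The median ratio of the 8 was 0.662 with Oxali, 0.579 with Cispl, 0.696 with IFNγ alone and 0.527 with the combination. Over all start-site regions with a Ctrl level of 40 or more, a limit set after the members' levels were seen, the medians were 0.712, 0.620, 0.674 and 0.521 in the same order. This set had a lower limit only and was not matched to the members' Ctrl levels, which ran from 44.2 to 209. At least 1.5-fold lower were 5 of the 8 with Oxali (62.5%, background 34.8%) and 6 with Cispl (75%, background 65.5%). With IFNγ alone 3 were (37.5%, background 47.3%), and with the combination 7 (87.5%, background 78.8%). These counts describe 8 regions and were not tested. Scaling by the 85377 regions that all lists called, in place of the genome background, multiplied every ratio to Ctrl by 0.773 with Oxali, 0.834 with Cispl, 1.17 with IFNγ alone and 0.774 with the combination. Under it 6 of the 8 were at least 1.5-fold lower with Oxali (82.7% of the same genome set), 8 with Cispl (89.8%), 0 with IFNγ alone (17.4%) and 8 with the combination (93.1%). Where it turned a direction named below, both values are given.

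Over their whole windows, the 10 genes had more regions that every list called, and fewer that the platinum lists alone called, than the genome did. These are shares of the lists, with no test of the difference. All 5 lists called 46 of the 82 regions (56.1%, against 40.4% of all merged regions). The 3 platinum lists together, and neither Ctrl nor IFNγ, called 3 (3.66%, against 11.1%). A single list called 19 (23.2%, against 23.7%), and for 11 of these that was the Cispl list (13.4% of the 82, against 9.11% of all), the deepest of the 5. The part of depth in this was not tested.

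A region was counted as gained when its q-value was at most 0.01 in the treated list and it overlapped no Ctrl region, and as lost in the mirror case. Gained were 10 of the 65 such regions of the Oxali list in the windows (15.4%, background over all regions of the list 32.5%) and 20 of 74 with Cispl (27.0%, background 37.3%). With IFNγ 3 of 54 were gained (5.56%, background 12.9%), and with the combination 10 of 63 (15.9%, background 38.4%). The share gained near the members was thus below the share over the genome in each of the 4 lists. Of these gains 4 with Oxali, 3 with Cispl, 2 with IFNγ alone and 1 with the combination lay inside merged regions that Ctrl also called. Such merged regions are also among those whose ratios to Ctrl are given below. At least 1 gain was found at 6 members with Oxali, 9 with Cispl, 3 with IFNγ alone and 6 with the combination, where 62.3%, 70.2%, 35.1% and 68.2% of all protein-coding genes had one in a window made the same way. When gains within 500 bp of a Ctrl region were set aside, 4, 10, 0 and 5 were left. The same share over the genome is not given here, so these counts have no background.

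Of 62 such Ctrl regions in the windows, 6 were lost with Oxali (9.68%, background 9.11%), 5 with Cispl (8.06%, background 5.9%), 10 with IFNγ alone (16.1%, background 15.8%) and 6 with the combination (9.68%, background 7.59%). These shares were near the background. Of the 10 members, 6, 5, 6 and 6 had a loss, against 27.1%, 19.9%, 40.1% and 23.9% of all protein-coding genes. Near the 23 other p53 pathway genes, 30 of 158 regions were gained with Oxali, 51 of 184 with Cispl, 15 of 140 with IFNγ alone and 37 of 168 with the combination. These shares of gains were again below the background of each list. Of the 144 Ctrl regions of those genes 10, 7, 12 and 6 were lost.

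**Figure D2:**
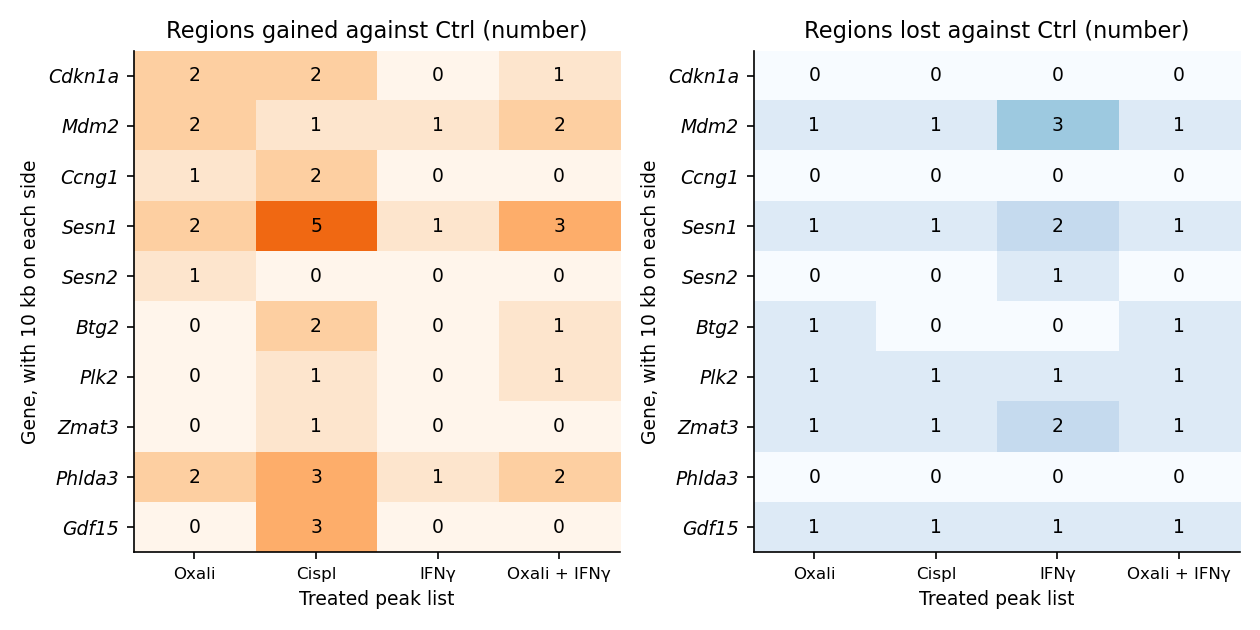
Number of regions gained (left) and lost (right) against Ctrl within each gene and 10 kb on each side, by treated peak list, with darker cells for more regions. Sesn1, the longest of the 10 genes, had the most gains with Cispl (5), and Cdkn1a, Ccng1 and Phlda3 had no loss in any list.

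Gains common to the Oxali, Cispl and Oxali + IFNγ lists numbered 3 of the 54 merged regions that were strong (a q-value of at most 0.01) in all of these lists (5.56%, background 22.1%), and no IFNγ call overlapped them. The first lay 2233 bp upstream of the Cdkn1a gene (chr17:29088476-29088827), with weak levels of 3.64, 2.83 and 3.49 in these lists. It carried the 2 single p53 decamers printed above, 36 bp before and 10 bp after the summit, and no paired match. The others lay at Sesn1. One of its regions (chr10:41802167-41802370, 7676 bp upstream and inside the neighbouring gene Cep57l1) had 10.4, 10.4 and 9.61, and the other (chr10:41889652-41889886, intron) had 18.3, 12.1 and 13.3. Both Sesn1 regions stood on a raised local background, 4.53 to 4.85 at the first and 7.49 to 8.91 at the second, next to larger open regions that Ctrl shared. Neither of them held a p53 or AP-1 match.

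Losses common to the same 3 lists were found at 5 members, 1 region each, out of 57 merged regions that were strong in Ctrl (8.77%, background 3.45%). At Mdm2 (chr10:117694090-117694274), Sesn1 (chr10:41877055-41877219), Plk2 (chr13:110401527-110401676) and Zmat3 (chr3:32345370-32345519) the lost region was called in Ctrl alone, at 3.46, 2.97, 2.64 and 2.47, and such regions made up 4.88% of the 82, against 1.45% of all merged regions. These 4 regions were weak. The region at Gdf15 (chr8:70625182-70625381, downstream) was larger, with 12.3 in Ctrl and 10.5 with IFNγ on local backgrounds of 4.66 and 4.33, and it had no call in the platinum lists.

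Where a region was called both in Ctrl and in the treated list, the members' levels were mostly lower after treatment and lay below the genome's in each list. The median ratio was 0.891 with Oxali over 51 regions (all regions, 1.14), 0.866 with Cispl over 52 (1.09), 0.815 with IFNγ over 48 (0.854) and 0.838 with the combination over 51 (1.13). Under the other scaling the members' medians were 0.688, 0.722, 0.956 and 0.649, while those of all regions turned to 0.880, 0.912, 1.00 and 0.875. The genome was thus above or below Ctrl in the platinum lists depending on the scaling, and the members were below it under both.

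At least 1.5-fold higher were 5 regions with Oxali (9.80%, background 29.2%), 8 with Cispl (15.4%, background 25.5%), 1 with IFNγ alone (2.08%, background 4.26%) and 6 with the combination (11.8%, background 30.4%). At least 1.5-fold lower were 11 (21.6%, background 7.68%), 11 (21.2%, background 12%), 12 (25.0%, background 18.4%) and 17 (33.3%, background 14.3%) in the same order. Under the other scaling 4 regions were higher and 22 lower with Oxali (7.84% and 43.1%, against 15.8% and 25.6% of all regions), and 5 and 22 with Cispl (9.62% and 42.3%, against 15.5% and 23.1%). With the combination these numbers were 4 and 29 (7.84% and 56.9%, against 17.3% and 28.7%), and with IFNγ alone 5 and 5 (10.4% each, against 10.3% and 6.92%). Outside the start-site regions of any gene the members' medians were 0.977, 0.901, 0.854 and 0.885, against 1.21, 1.16, 0.887 and 1.21 for such regions over the genome. Under the other scaling those of the members were 0.755, 0.752, 1.00 and 0.685. The genome's were then 0.936, 0.967, 1.04 and 0.939, so that each of them turned to the other side of 1.

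**Figure D3:**
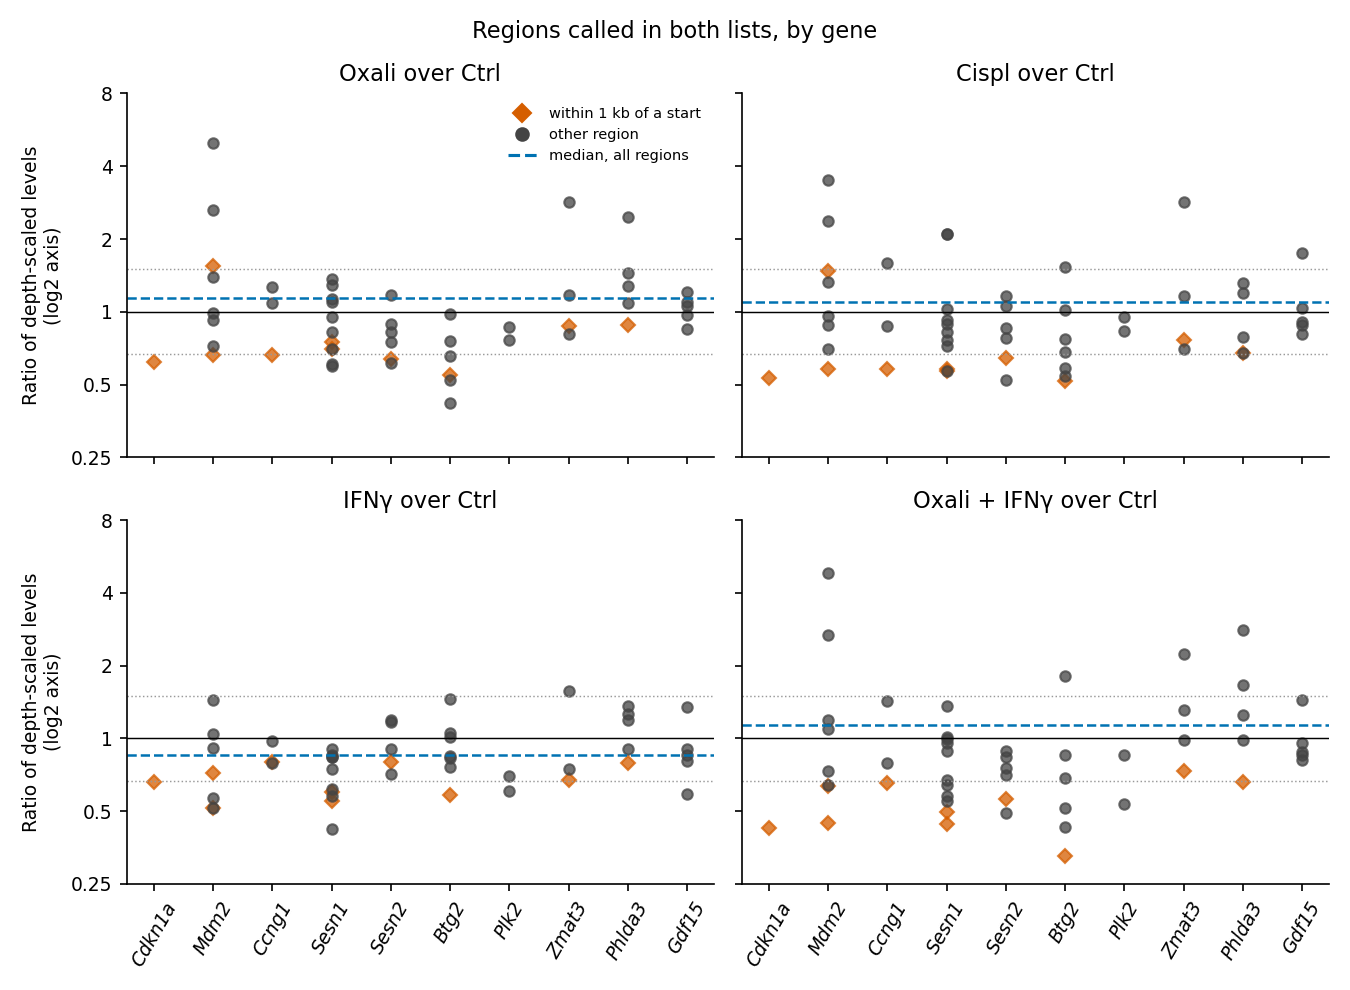
Ratio of the depth-scaled level in each treated list to that in Ctrl (log2 axis) for every region called in both, by gene, with regions within 1 kb of a start of the gene as orange diamonds and other regions as grey circles. The solid line is a ratio of 1, dotted lines mark 1.5-fold up and down, and the dashed line is the median of all regions of the genome (1.14, 1.09, 0.854 and 1.13); the points above 2 belong to Mdm2, Zmat3 and Phlda3, and with Cispl to Sesn1 in place of Phlda3.

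Mdm2 held the largest ratio of any member. A region inside the gene, 14606 bp from its start (chr10:117695621-117696304), had 2.55 in Ctrl, 12.8 with Oxali, 8.94 with Cispl, no call with IFNγ alone and 12.3 with the combination. The platinum lists were thus high and the other 2 low or without a call. The Oxali ratio was 5.00 (3.37 to 7.63), which 0.652% of all shared regions reached, the Cispl ratio 3.50 (2.34 to 5.37) and the combination ratio 4.82 (3.27 to 7.34). Scaled by the regions that all lists called, they were 3.87, 2.92 and 3.73. No p53 match lay in this region, and an AP-1 match lay in it but not within 100 bp of its summit.

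The next region of Mdm2, in an intron (chr10:117696667-117697032, printed above with its AP-1 match), was likewise highest in the 3 platinum lists, with 3.54 in Ctrl, 9.31 with Oxali, 8.43 with Cispl, 5.09 with IFNγ alone and 9.45 with the combination. Its Oxali ratio was 2.63 (1.83 to 3.84) and 6.68% of all shared regions reached that.

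The paired p53 match upstream of Mdm2 lay in a strongly open region (chr10:117717386-117718860). Its levels were 46.3 in Ctrl, 64.4 with Oxali, 44.6 with Cispl, 48.3 with IFNγ alone and 55.2 with the combination. The match with 1 mismatch was centred 64 bp from the summit, another with 2 mismatches overlapped it, and the AP-1 match lay beside the summit. Higher levels were thus seen in the lists with oxaliplatin, by 1.39 times (1.24 to 1.56) and 1.19 times (1.07 to 1.34), and the second of these turned to 0.923 under the other scaling while the first stayed at 1.08. The Cispl level was 0.964 times that of Ctrl (0.858 to 1.08).

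Another region inside Mdm2, at an internal start (chr10:117692181-117692482) and chosen after its values were seen, separated the lists by IFNγ. It stood at 10.1 in Ctrl, 15.6 with Oxali and 15.0 with Cispl, but at 5.20 with IFNγ alone and 6.43 with the combination. The combination level was 0.412 times that with Oxali (0.313 to 0.538), and 0.0278% of the regions called in both lists had a ratio as low.

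**Figure D4:**
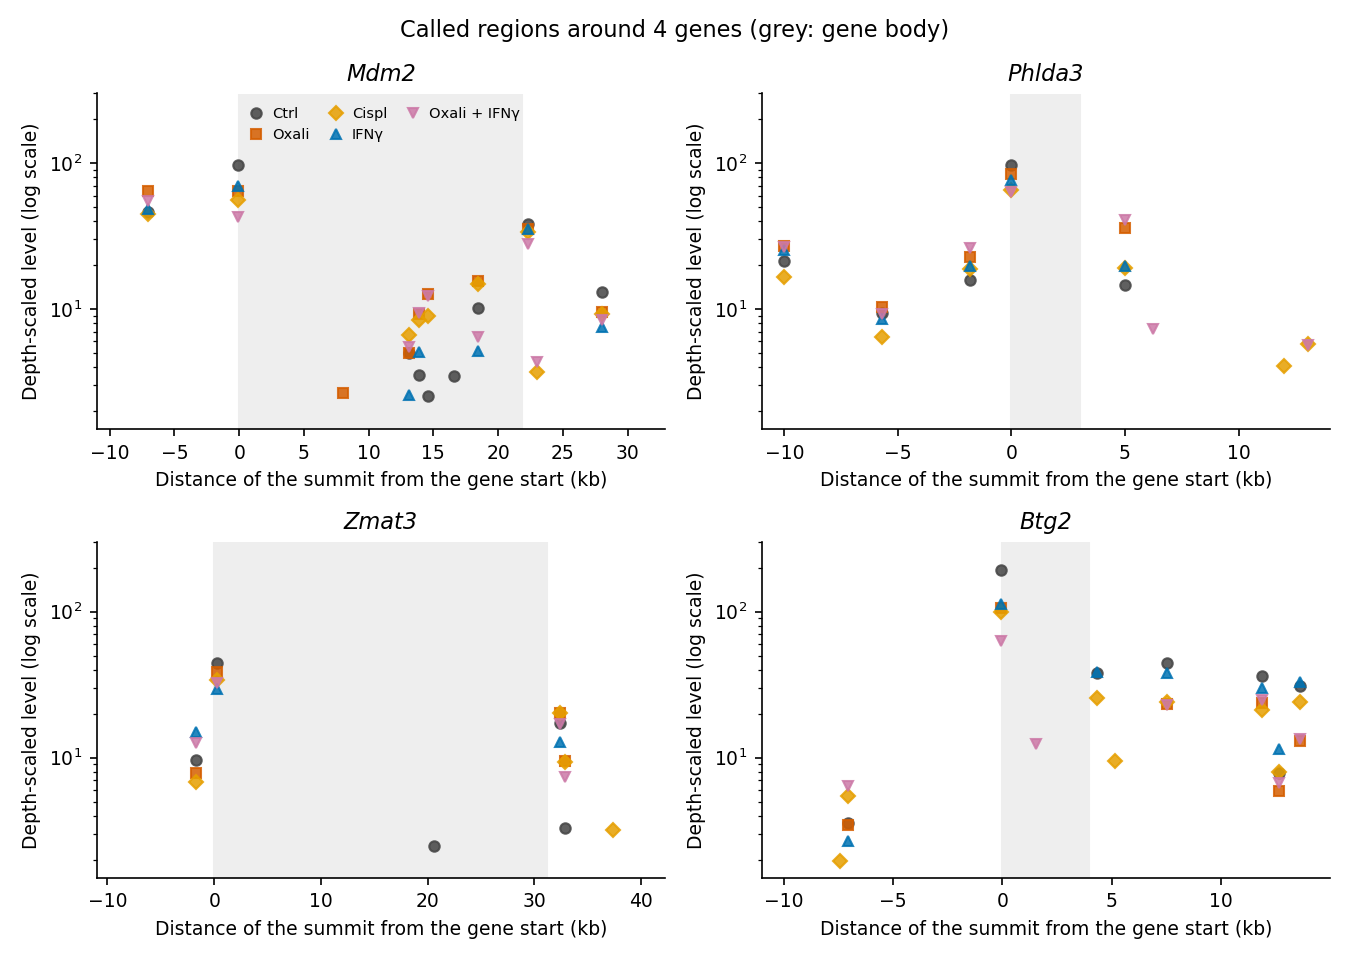
Depth-scaled level (log axis) of each called region against the distance of its summit from the gene start in the direction of transcription, for Mdm2, Phlda3, Zmat3 and Btg2, 1 symbol per peak list, gene body in grey and no symbol where a list had no call. Inside Mdm2 the platinum lists lie at 8.94 to 12.8 over a Ctrl level of 2.55, downstream of Phlda3 the lists with oxaliplatin lie at 36.1 and 40.8 over 14.6, and downstream of Btg2 they lie at 13.0 and 13.3 under 31.1.

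At Zmat3 the largest ratio was that of a region 1638 bp beyond the end of the gene (chr3:32332881-32333418), with 3.30 in Ctrl, 9.40 with Oxali, 9.37 with Cispl, no call with IFNγ alone and 7.36 with the combination. All 3 platinum lists were above Ctrl, by 2.85 times (1.97 to 4.22), 2.84 times (1.98 to 4.16) and 2.23 times (1.53 to 3.32). The shares of all shared regions that reached these ratios were 5.10%, 3.25% and 12.2%. The region upstream of the same gene (chr3:32367585-32367895) had the lowest Oxali ratio, 0.810 (0.607 to 1.08), an interval that includes 1. Its level was higher in the IFNγ list, 15.1 against 9.64 in Ctrl.

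At Phlda3 the region with the AP-1 match and the single p53 decamer (chr1:135770926-135772139, 1976 bp beyond the gene) had 14.6 in Ctrl, 36.1 with Oxali, 19.2 with Cispl, 19.9 with IFNγ alone and 40.8 with the combination. Both lists with oxaliplatin were high, at 2.48 times (2.07 to 2.97) and 2.80 times (2.36 to 3.34) the Ctrl level, and 8.01% and 6.37% of all shared regions reached these ratios. The decamer lay 3 bp from the summit. Cispl and IFNγ stood at 1.32 times (1.08 to 1.60) and 1.36 times (1.10 to 1.68).

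Btg2 had the lowest Oxali ratio of any member, at a region 9621 bp beyond the gene (chr1:134065248-134065855) that holds a paired p53 match of 2 mismatches away from its summit. The levels were 31.1 in Ctrl, 13.0 with Oxali, 24.0 with Cispl, 32.8 with IFNγ alone and 13.3 with the combination. Both lists with oxaliplatin were low, at 0.419 times (0.344 to 0.508) and 0.428 times (0.355 to 0.514), and 0.208% and 2.75% of all shared regions had ratios as low. A nearer region (chr1:134074210-134075086, chosen after its values were seen) was lost in the same 2 lists. It had 37.9 in Ctrl, 25.7 with Cispl and 38.4 with IFNγ, on local backgrounds of 18.0, 10.7 and 13.5, which are the highest of any region of the windows in each of these lists.

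At Cdkn1a the start-site region was the single region called in both Ctrl and Oxali, so its ratio given above was both the largest and the smallest. For the 6 members named next, the largest Oxali ratios had intervals that included 1. They were 1.26 (0.784 to 2.04) at Ccng1, 1.36 (0.979 to 1.90) at Sesn1, 1.17 (0.716 to 1.92) at Sesn2, 0.977 (0.617 to 1.54) at Btg2, 0.863 (0.686 to 1.08) at Plk2 and 1.21 (0.776 to 1.89) at Gdf15. Under the other scaling those of Ccng1, Sesn2 and Gdf15 turned below 1, to 0.975, 0.906 and 0.934. The Sesn1 region (chr10:41826001-41826860, intron, with an AP-1 match at the summit) stood at 5.60 in Ctrl, 7.63 with Oxali, 11.8 with Cispl, 4.78 with IFNγ alone and 7.59 with the combination, so Cispl was the highest there. The lowest Oxali ratios were 0.597 (0.493 to 0.720) for an intron of Sesn1 (chr10:41865995-41867150), 0.613 (0.552 to 0.680) for a region 5126 bp upstream of Sesn2 (chr4:132515135-132516100), 0.766 (0.539 to 1.08) upstream of Plk2 (chr13:110392283-110392527) and 0.848 (0.768 to 0.935) for the region inside Gdf15. At Cdkn1a, Mdm2, Ccng1 and Phlda3 the main start-site region had the lowest ratio.

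Oxaliplatin and cisplatin are platinum compounds that crosslink DNA and differ in the ligands around the metal, with a diaminocyclohexane and an oxalate in oxaliplatin and ammines and chlorides in cisplatin. At the matched dose of 2 µM and 48 h, 57 regions of the windows were called in both lists, and their median ratio of Cispl over Oxali was 0.941 (all regions, 0.932), which turned to 1.02 (1.01) under the other scaling. With Cispl 5 regions were at least 1.5-fold higher (8.77%, background 6.95%) and 4 at least 1.5-fold lower (7.02%, background 12.2%), or 7 (12.3%, against 10.1% of all regions) and 2 (3.51%, against 8.38%) under the other scaling. The widest separation upward was the Btg2 region downstream, 1.84 times (1.51 to 2.25), and that downward was the Phlda3 region downstream, 0.531 times (0.453 to 0.622). The Mdm2 region upstream with the p53 match was lower with Cispl, at 0.693 times (0.621 to 0.772), as was the region of the largest Mdm2 ratio, at 0.70 times (0.545 to 0.896). In the downstream region of Zmat3 the compounds had 9.40 and 9.37, a ratio of 0.997 whose interval (0.765 to 1.30) leaves room for a difference in either direction. The start-site ratios lay between 0.766 and 1.01 with a median of 0.875 (0.864 for start-site regions of the genome with a Ctrl level of 40 or more). No difference was tested, because the pooled lists used here hold no values per library.

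Between the combination and oxaliplatin alone, levels at least 1.5-fold lower were found at start sites of the members, and smaller decreases lay away from them too. Over 54 regions called in both lists the median ratio of Oxali + IFNγ over Oxali was 0.913 (all regions, 0.995), with 2 regions at least 1.5-fold higher (3.70%, background 4.01%) and 4 at least 1.5-fold lower (7.41%, background 4.53%). All 4 of the latter overlapped a start of their gene with 1 kb on either side, and none of the 44 regions away from any start was among them. Of these 44, however, 30 had a ratio below 1, with a median of 0.959 (1.02 for such regions over the genome) and a lowest value of 0.669. Over the genome the 1.5-fold count was split in the same way, with 15.4% of start-site regions and 2.68% of other regions at least 1.5-fold lower, so this split is not particular to the members. At the 8 start sites the median was 0.719, against 0.735 for start-site regions of the genome with a Ctrl level of 40 or more. Btg2 had the lowest of these, 0.592 (0.540 to 0.647), followed by Sesn1 with 0.663 (0.617 to 0.712), and Ccng1 the highest, 0.981. The 2 regions at least 1.5-fold higher with the combination lay upstream of Btg2 and of Zmat3. That of Btg2 (chr1:134085945-134086361) had 6.43 against 3.46 with Oxali, or 1.86 times (1.26 to 2.79), which 0.582% of all shared regions reached. That of Zmat3 had 12.6 against 7.81, or 1.62 times (1.24 to 2.12), which 2.13% reached.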

How the data were processed

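ATAC-seq was done on 10 libraries of Myc-CaP cells, 2 per group. The authors trimmed adapters, aligned reads to mm10 (Bowtie2 2.2.8 per the submitters' processing notes) and filtered them. Peaks were then called by the authors on the pooled reads of each group with MACS2 2.1.0 and no control library, so nearby open chromatin raises the height a region needs. The deposited fold is a ratio, pileup plus 1 over local background plus 1. The authors' −log10 p-value is the Poisson probability of the pileup given the background, and a −log10 q-value and the offset of the summit were deposited with it. The smallest −log10 p is 2.00, but 2.99 in Cispl.

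From these values the whole-number pileup and its background were solved for 100% of peaks. The most common lowest background, which scales with depth, served as genome background of a list (Ctrl 12.1, Oxali 11.3, Cispl 13.8, IFNγ 9.62, combination 12.9). Summits of the same interval were 1 region, and overlaps needed 1 bp. Genes came from GENCODE M21. The solving, the gain and loss calls and the motif search were tested on simulated data. The pooled lists give no counts or spread per replicate. Python 3.11, pandas 2.3.3, scipy 1.17.1 and pysam 0.24.0 were used. The 10 genes, the gene lists, the motifs and the rules were chosen with earlier results of these data known. Named were the start-site region of each gene, regions gained or lost in all 3 platinum lists, regions with a paired p53 match at the summit, and per gene the regions of largest and smallest Oxali ratio. Alternatives were a stricter q-value, other windows, overlaps and scalings, the mean of the summits, the deposited fold and the same p-value limit for all lists. Some cell type markers that were examined are not reported here.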

Additional observations from a re-analysis of the deposited data

How the results depend on the processing

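No paired analysis was possible because the lists used here pool the libraries of each group, and leaving out each library was not run for the same reason. A q-value of at most 1e-05 left 6 gains with Oxali, 12 with Cispl and 3 losses with Cispl. Without the 10 kb on each side, gains were 4 with Oxali, 3 with Cispl and 4 with the combination, losses were 3 in each of these lists, and the median ratio with the combination was 0.673. With 50 kb on each side, which counts more regions, gains were 39 with Oxali, 51 with Cispl, 14 with IFNγ alone and 40 with the combination, and losses 15, 11, 23 and 15. Leaving out regions within 500 bp of the other list gave 4, 10, 0 and 5 gains and 6 losses with IFNγ. Scaling by the regions that all lists called gave median ratios of 0.688, 0.722, 0.956 and 0.649. None of these 4 median ratios to Ctrl turned its direction under these alternatives. Other medians given above did turn with the scaling, such as that of Cispl over Oxali. An overlap of 50% of the shorter region and a p-value limit shared by all lists kept each count within 1.5 times. The mean of the summits, the deposited fold and a q-value of at most 0.01 in both lists kept each median ratio within the 95% binomial interval of the median over regions. Weak regions are the least certain, above all in the IFNγ list, which was the shallowest.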
